A study of Mus musculus with 4 samples.

Results

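The genes described here are 59 named genes that carry out or gate DNA replication at the passage from G1 into S phase. They were chosen by name, with earlier results of these data known. All 59 had a probe that passed the filter on dim signals, among 18454 genes tested. By role, 21 license origins or form the helicase, and 18 are polymerases or clamp and fork proteins. Another 5 supply nucleotides, 4 serve chromatin assembly, and 11 are cyclins, cyclin-dependent kinases (CDKs) or E2F factors. Their RNA was measured in cultured mouse spermatogonial stem cells, which renew themselves and sustain sperm production, on 4 Agilent 2-colour arrays. In the treated cells (-F+S), FGF2 had been withdrawn and SU5402, an inhibitor of the FGF receptor kinase, added for 12 h. The control cells stayed in normal culture. Both came from C57/BL6 x DBA/2 F1 mice at day 5, and the normal serum-free medium held 40 ng/ml GDNF and 5 ng/ml FGF2. The labels give no time for the control cells and do not speak of feeder cells.

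Each array carried 1 treated sample in green and 1 control sample in red. No array had the dyes exchanged, so a dye effect on a gene and the treatment cannot be told apart. The design text calls the samples biological replicates without naming the cultures or animals behind them, so p-values measure the spread between these samples. All 4 arrays shared 1 slide and 1 scan. Of 41174 probes, 26613 to 28496 an array stood well above background in treated samples and 25533 to 27891 in control samples. Of the germ cell markers, 15 of 16 were tested, and all 15 were well above background in both channels of every array. The remaining marker, Zbtb16, was not tested here.

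Before S phase, the origin recognition complex, Cdc6 and Cdt1 load the Mcm2 to Mcm7 ring onto origins, which is called licensing. The kinases Cdc7 with Dbf4 and Cdk2 with cyclin E then turn the ring into a moving helicase with Cdc45 and the GINS proteins. Polymerases, the sliding clamp and its loader, and enzymes that make deoxynucleotides follow. Many of these genes are textbook targets of E2F factors, which are held back by the retinoblastoma family until cyclin-dependent kinases act. In cultured spermatogonial stem cells, FGF2 and GDNF are known as growth factors that sustain proliferation and self-renewal.

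The promoters of 6 members are shown. They were taken only from members whose stretch held a match as defined below, so every stretch shown holds at least 1 by choice. Other members with a match are not shown, Cdc6, Mcm7 and Uhrf1 among them. Of the 6, Mcm5, Orc1, Rpa2, E2f8 and Chaf1a were lower in treated cells, and the brightest probe of E2f3 was higher. Each stretch is the 180 bases before an annotated start in RefSeq (GRCm38.p6), read along the gene. Capitals mark a match on either strand to 1 of 4 cores of the textbook E2F site, namely TTCGCGC, its variant TTGGCGC, the variant TTCCCGC and also the variant TTGCCGC, and matches may overlap, as they do in Mcm5. The Mcm5 stretch lies at chr8:75109329-75109508, plus strand, the Orc1 stretch at chr4:108579274-108579453, plus strand, and the Rpa2 stretch at chr4:132768180-132768359, plus strand. The E2f8 stretch lies at chr7:48881597-48881776, minus strand, the Chaf1a stretch at chr17:56040236-56040415, plus strand, and the E2f3 stretch at chr13:29986064-29986243, minus strand.
Mcm5: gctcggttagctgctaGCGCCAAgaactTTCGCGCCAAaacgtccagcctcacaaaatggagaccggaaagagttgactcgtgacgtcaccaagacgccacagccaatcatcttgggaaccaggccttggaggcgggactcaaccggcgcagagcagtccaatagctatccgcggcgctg
Orc1: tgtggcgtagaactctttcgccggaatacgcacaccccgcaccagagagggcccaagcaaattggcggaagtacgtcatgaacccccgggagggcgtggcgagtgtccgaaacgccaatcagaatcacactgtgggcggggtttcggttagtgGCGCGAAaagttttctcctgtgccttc
Rpa2: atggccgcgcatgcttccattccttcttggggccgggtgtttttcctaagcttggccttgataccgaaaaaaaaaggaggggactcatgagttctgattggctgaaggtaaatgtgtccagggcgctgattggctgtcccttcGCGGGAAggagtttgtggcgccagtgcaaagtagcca
E2f8: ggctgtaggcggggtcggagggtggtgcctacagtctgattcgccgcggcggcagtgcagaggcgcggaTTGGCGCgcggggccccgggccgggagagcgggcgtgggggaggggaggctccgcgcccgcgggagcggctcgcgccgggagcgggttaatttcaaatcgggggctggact
Chaf1a: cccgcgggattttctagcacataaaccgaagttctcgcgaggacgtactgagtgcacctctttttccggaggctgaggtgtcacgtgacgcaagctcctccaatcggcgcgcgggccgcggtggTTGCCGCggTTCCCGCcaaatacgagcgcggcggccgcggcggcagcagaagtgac
E2f3: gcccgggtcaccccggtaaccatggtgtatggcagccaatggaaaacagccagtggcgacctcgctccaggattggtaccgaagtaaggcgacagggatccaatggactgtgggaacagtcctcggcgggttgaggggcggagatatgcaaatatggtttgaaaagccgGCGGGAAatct

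The Mcm5 stretch held 3 matches and the Chaf1a stretch 2, while each of the other 4 held 1. Of the 59 members, 49 had a promoter window of 250 bases before to 50 after a start, and 31 of these 49 (63.3%) held at least 1 match. Among all 12372 tested genes with a window the share was 17.9%, and among all 27025 genes of the table it was 10.9%. The share was 61.1% for members called lower (22 of 36) and 69.2% for the other members (9 of 13). The members' windows had a median GC content of 62.3%, against 59.7% for tested genes and 52.7% for all genes. A match describes the letters in the window and says nothing on binding.

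Most of the 59 genes were lower in treated cells. By limma on the log2 ratio of treated over control, 43 (72.9%) were lower and 2 were higher at an adjusted p under 0.05, and 14 were not called. Over all 18454 genes, 30.9% were called lower and 37.5% higher. The median log2 ratio of the members was -0.46, against 0.02 over all genes. It was -0.47, -0.49, -0.52 and -0.38 on arrays 1 to 4, so each array gave a median below 0. Ratios were below 0 on all 4 arrays for 45 members, a pattern that 34.4% of all genes showed. The falls were mostly moderate: those called spanned -1.31 to -0.20, a 2.48-fold to 1.15-fold lower level, and only Pola2, Rpa2 and Mcm5 were at least 2-fold lower. In bulk samples, fewer cells of a type and less RNA per cell cannot be told apart. With the scanner's own log ratios in place of those normalized here by loess, 48 members were called lower and 1 higher. With the scanner's log ratios, calls over all genes were 7854 lower and 5598 higher, in place of 5705 and 6924. With a trend on probe GC removed, the members' counts were 50 lower and 1 higher (Chaf1b, with E2f3 and Tyms not called), and over all genes 7568 lower and 5885 higher. Of the 14 members not called, 9 were called under at least 1 alternative.

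**Figure D1:**
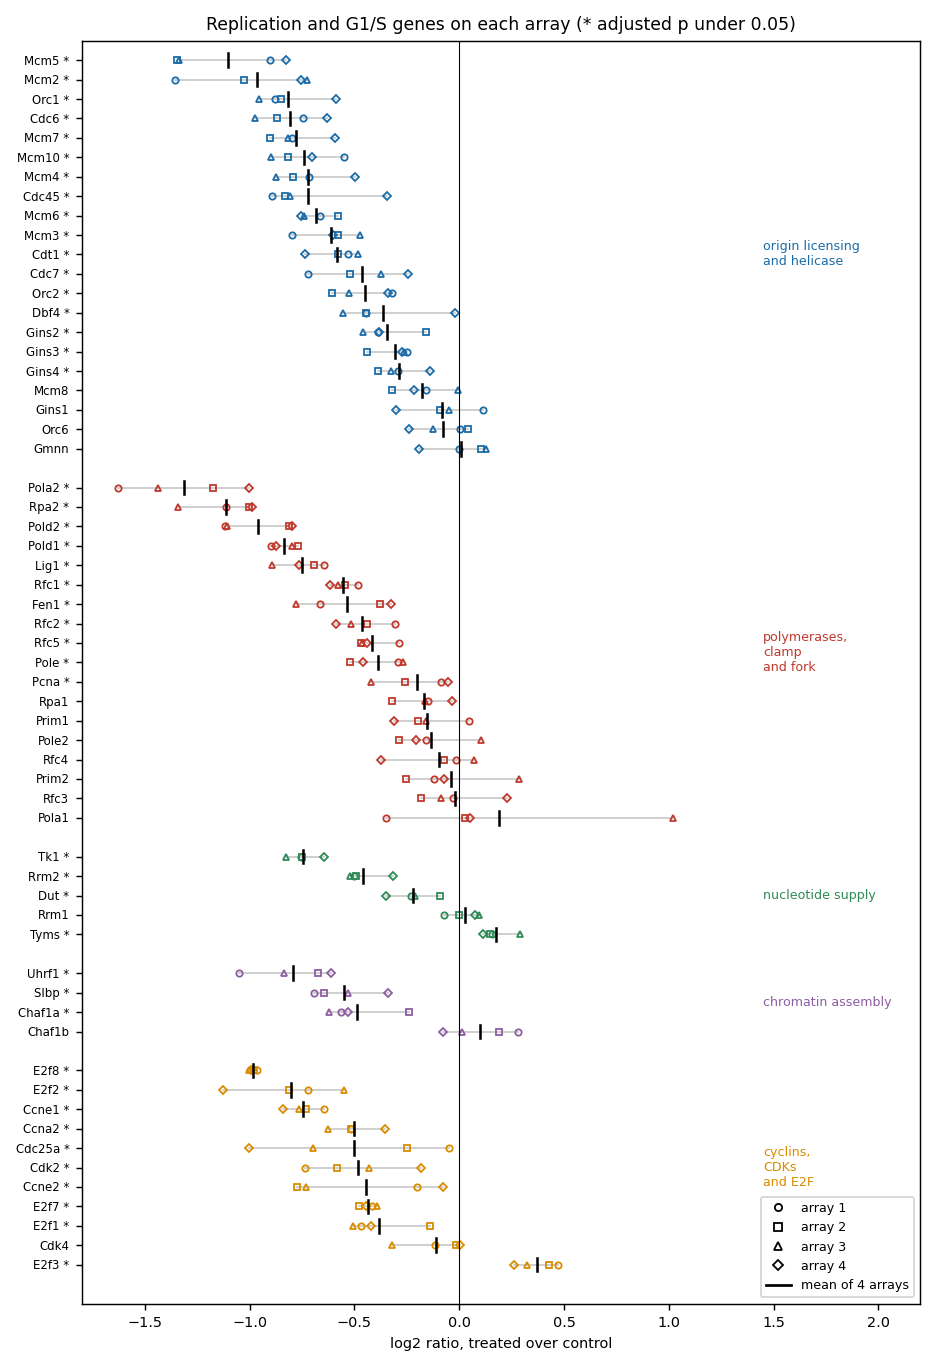
Log2 ratio of treated over control for all 59 members, grouped by role and ordered by the mean within each role; each symbol is 1 array and the black bar is the mean of 4 arrays. Most symbols lie left of 0, with E2f3 and Tyms the only called genes to the right and Pola1 the most scattered.

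Markers of other cells moved in the same samples. All 11 Sertoli cell markers were higher, with a median log2 ratio of 2.12. The log2 of their summed linear levels was 18.96 to 19.05 in treated samples and 16.82 to 16.92 in control samples. The brightest genes weigh most in such a sum: Clu alone averaged a log2 level of 18.2 in treated and 16.3 in control samples. Among the Sertoli cell markers, Amh and Fshr were not well above background on every control array. Of 11 fibroblast and feeder cell markers, 10 were higher, with a median of 1.50 and sums of 20.80 to 20.88 in treated samples and 19.37 to 19.55 in control samples. All 9 leukocyte markers were lower, with a median of -0.91. Their sums were 15.67 to 15.99 in treated samples and 16.93 to 17.18 in control samples. These sums were set mostly by Lyz2, which averaged 15.60 in treated and 16.76 in control samples. Of the 15 germ cell markers tested, 9 were called lower and none higher, with a median of -0.33 and sums of 18.40 to 18.61 in treated samples and 18.92 to 19.02 in control samples. The members' median of -0.46 stands beside these values, and the part of the cell makeup in it was not tested.

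**Figure D2:**
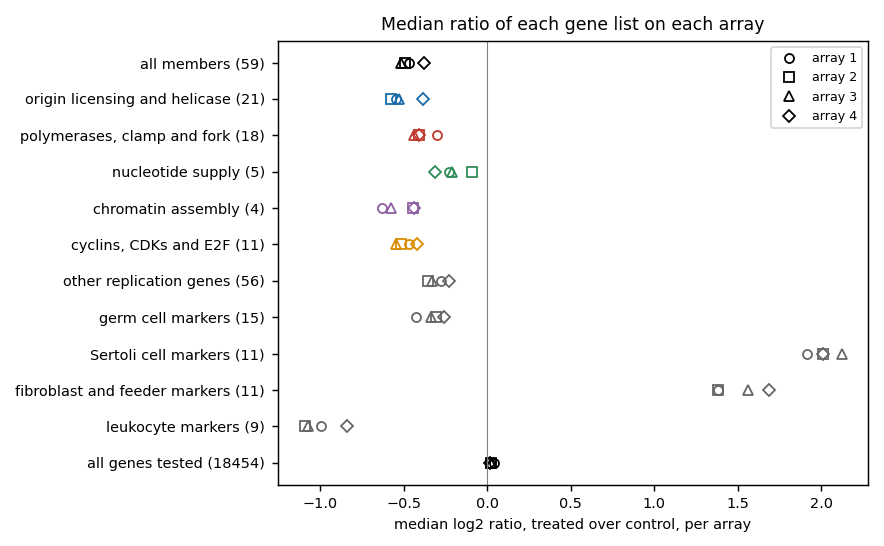
Median log2 ratio of treated over control for each gene list on each of the 4 arrays, with the number of genes in brackets. The lists of replication genes and the germ cell markers lie below 0, the Sertoli and fibroblast lists above 1, the leukocyte list near -1, and all genes near 0.

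Licensing and helicase genes were mostly lower. Of 21, 17 were called lower and none higher, and their median log2 ratio was -0.58. All 6 subunits of the Mcm2 to Mcm7 ring were lower, with means between -1.10 and -0.61 and single-array ratios between -1.36 and -0.47. Mcm5, a subunit at the ring's opening gate with Mcm2, had log2 levels of 15.26, 14.92, 15.05 and 15.27 in treated samples and 16.17, 16.26, 16.39 and 16.10 in control samples. Every treated level lay below every control level. The log2 ratio was -1.10 (SE 0.103, n = 4, limma adjusted p 1.23e-05), a 2.15-fold lower level. Its probe maps to chr8:77651350-77651410 in the mm9 coordinates of the files. Mcm2 had ratios of -1.36, -1.03, -0.73 and -0.76, the widest spread in the ring, and a mean of -0.97 (limma adjusted p 3.71e-05).

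Mcm7, another ring subunit (probe chr5:138605925-138605984), averaged a log2 level of 16.60 ± 0.09 in treated samples and 17.38 ± 0.05 in control samples (SD, n = 4 each), 1.71-fold lower (limma adjusted p 1.5e-05). Its ratios of -0.80, -0.90, -0.82 and -0.59 were all well below 0. Mcm4 (-0.72), Mcm6 (-0.68) and Mcm3 (-0.61) were lower by similar amounts. How far the ring fell depended on the normalization: with arrays centred on their median in place of loess, Mcm7 was at -1.26, Mcm6 at -1.13, Mcm4 at -1.12 and Mcm3 at -0.96. Median-centred processed signals gave smaller falls for Mcm7 (-0.55) and Mcm6 (-0.48), as did the scanner's log ratios (-0.60 and -0.53). With the GC trend removed, Mcm3 was at -0.93. All 6 subunits were called lower under each of these settings.

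**Figure D3:**
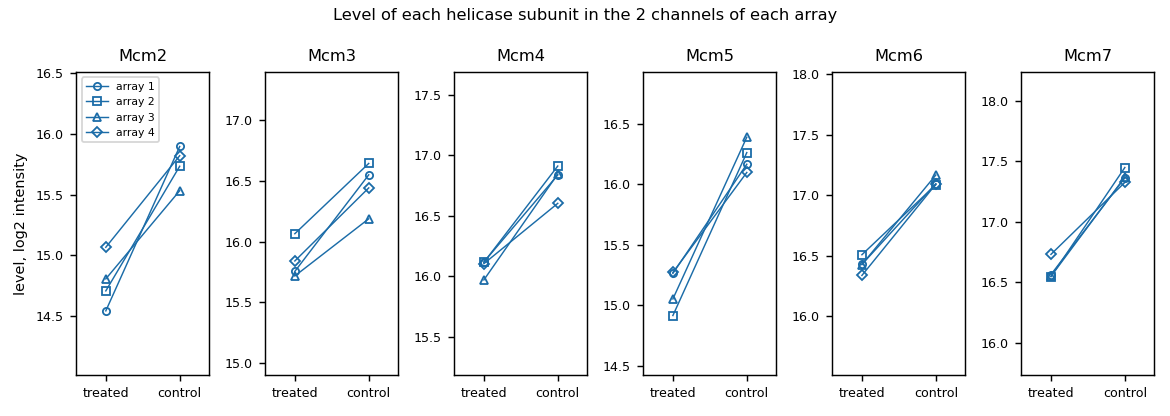
Log2 intensity of the brightest probe of each ring subunit in the treated (left) and control (right) channel, with a line joining the channels of 1 array. Every line climbs to the right, and in every panel the 4 treated points lie below the 4 control points; the panels share an axis span but levels of different probes are not comparable.

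Several loaders of the ring were lower too. Orc1, the largest subunit of the origin recognition complex (probe chr4:108284772-108285679), averaged 12.68 ± 0.07 in treated samples and 13.50 ± 0.10 in control samples (SD, n = 4 each, log2 level). Its ratios were -0.88, -0.85, -0.95 and -0.59, a 1.76-fold lower level (limma adjusted p 1.61e-05). Cdc6, the ATPase that recruits the ring (probe chr11:98782573-98782632), averaged 12.02 ± 0.03 in treated samples and 12.82 ± 0.14 in control samples, with ratios of -0.74, -0.87, -0.97 and -0.63 (limma adjusted p 1.52e-05). For both genes the treated and control levels of these probes did not overlap, and a second kept Cdc6 probe gave -0.55. Cdt1, which brings the ring to Cdc6, was at -0.58, and Orc2 was at -0.45. Of the complex's other subunits, Orc4 was called higher, at 0.51 and on all 4 arrays (limma adjusted p 0.000234), and Orc3 was not called at -0.02. Orc5 was called lower at -0.26, but only just (limma adjusted p 0.0493), with ratios of -0.50, -0.20, -0.48 and 0.12. Orc6 was not called (-0.08), nor was Gmnn, the inhibitor of Cdt1, at 0.01 with ratios on both sides of 0.

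The factors that fire the loaded ring were mostly lower, by amounts that in part depended on the probe read. Mcm10, which helps the helicase start, was at -0.74, and Cdc45, a partner of the ring in the active helicase, at -0.72. Cdc7, the kinase that phosphorylates the ring, was at -0.47 and its activator Dbf4 at -0.37. The other kept Cdc7 probes were at -0.94 and -0.55 and the second kept Dbf4 probe at -0.49, all called lower. Of the GINS subunits, Gins2 (-0.35), Gins3 (-0.31) and Gins4 (-0.29) were lower, and Gins1 was not called at -0.08. The second kept probe of Gins1 was at -0.39, and was called lower. Mcm8, a relative of the ring subunits with a role in repair, was at -0.18 and not called, but it was called lower under 6 alternatives, at -0.38 with the GC trend removed and -0.29 on its second probe. Dbf4, Gins2 and Gins3 were not called with median centring, at limma adjusted p of 0.121, 0.134 and 0.249, and both Dbf4 (-0.56) and Gins2 (-0.55) were further below 0 with the scanner's log ratios, as was Gins3 (-0.51). With the GC trend removed, Gins4 was at -0.49.

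Of 18 polymerase, clamp and fork genes, 11 were called lower and none higher, and the median was -0.40. The group held the largest falls of all members beside partners with no call, though 5 of those partners were called lower once a trend on probe GC was removed. Pola2, the B subunit of DNA polymerase alpha, which starts new strands with primase (probe chr19:5946484-5946543), had log2 levels of 10.92, 11.42, 10.99 and 11.28 in treated samples and 12.55, 12.60, 12.43 and 12.29 in control samples. The treated and control ranges were well separated. Its ratio of -1.31 (SE 0.102, n = 4, limma adjusted p 3.65e-06) is a 2.48-fold lower level.

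Rpa2, a subunit of the complex that coats single-stranded DNA (probe chr4:132333869-132333929), had log2 levels of 13.73, 14.03, 13.93 and 14.00 in treated samples and 14.84, 15.03, 15.28 and 14.99 in control samples. All treated levels lay below all control levels. The ratio was -1.11 (SE 0.080, n = 4, limma adjusted p 2.08e-06), and a second kept probe gave -0.72. Pold1, the catalytic subunit of polymerase delta (probe chr7:51788221-51788589), had ratios of -0.90, -0.77, -0.80 and -0.88, a mean of -0.84 (limma adjusted p 4.39e-06). Its partner Pold2 (probe chr11:5773086-5773145) had ratios of -1.12, -0.81, -1.11 and -0.80, a mean of -0.96 (limma adjusted p 7.19e-06). Both subunits were lower on every array.

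Lig1, the ligase that joins Okazaki fragments, was at -0.75, and Fen1, which trims their flaps, at -0.54. Of the clamp loader genes, Rfc1 (-0.56), Rfc2 (-0.46) and Rfc5 (-0.42) were lower, and Rfc3 (-0.02) and Rfc4 (-0.10) were not called. Median centring put Rfc2 at -0.72 and Rfc5 at -0.63. Pole, the catalytic subunit of the leading-strand polymerase, was at -0.39. Pcna, the sliding clamp, was at -0.20 with ratios of -0.09, -0.26, -0.42 and -0.05 and a limma adjusted p of 0.0486. That call was lost under 7 alternatives, with an adjusted p of up to 0.365, while median centring put Pcna at -0.54. Rpa1 (-0.17), Prim1 (-0.16), Pole2 (-0.14) and Prim2 (-0.04) were not called. With the GC trend removed, these 4 were called lower at -0.27, -0.26, -0.41 and -0.31, and Rfc4 at -0.37. Rpa1 (-0.32), Prim1 (-0.27) and Pole2 (-0.32) were also called lower with the scanner's log ratios.

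Subunits of a complex were set against each other in 7 pairs, by the difference of their ratios on each array and an exact two-sided sign-flip permutation test, whose smallest possible p with 4 arrays is 0.125. The log2 ratio of Pola2 minus that of Pola1, the catalytic subunit, averaged -1.50 and was below 0 on all 4 arrays. Pola1 itself was at 0.19 and not called, with ratios of -0.35, 0.03, 1.02 and 0.05, so array 3 set most of its mean. Rpa2 minus Rpa1 averaged -0.94 and Chaf1a minus Chaf1b -0.59, each below 0 on all 4 arrays. Rrm2 minus Rrm1 averaged -0.48 and Pole minus Pole2 -0.25, again below 0 on all 4 arrays. These 5 pairs reached the smallest exact p, 0.125, or 0.175 after Benjamini-Hochberg adjustment over the 7 pairs. Pold1 minus Pold2 averaged 0.12 (exact p 0.375, adjusted 0.438) and Prim1 minus Prim2 -0.12 (exact p 0.5, adjusted 0.5), and neither kept one sign over the arrays. All pairs were taken with loess only, and each sets a probe against a different probe. With the GC trend removed Pole2 was at -0.41, while Pole lay between -0.55 and -0.34 over all settings.

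**Figure D4:**
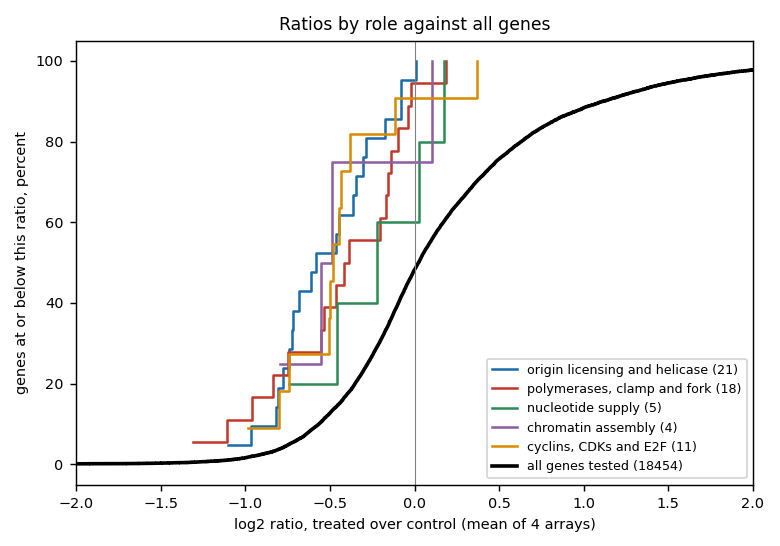
Cumulative share of genes, in percent, at or below each mean log2 ratio of treated over control, for the 5 roles and for all 18454 genes tested. The curves of the licensing genes, of chromatin assembly and of the cyclins, CDKs and E2F factors lie furthest left at their middle, and nucleotide supply lies closest to all genes. This order of the roles is that under loess and changed with median centring.

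The 5 nucleotide supply genes were split. Tk1, the thymidine kinase of S phase (probe chr11:117677105-117677164), had log2 levels of 14.33, 14.42, 14.46 and 14.55 in treated samples and 15.09, 15.16, 15.29 and 15.20 in control samples. The ranges did not overlap, and the ratio was -0.75 (SE 0.068, n = 4, limma adjusted p 1.06e-05). Rrm2, the S phase subunit of ribonucleotide reductase, had ratios of -0.50, -0.49, -0.52 and -0.31, a mean of -0.46 (limma adjusted p 0.000322), or -0.73 with the GC trend removed. Its partner Rrm1 was not called at 0.02. Dut, which removes dUTP, had ratios of -0.23, -0.09, -0.21 and -0.35 (limma adjusted p 0.0204), a call lost under 5 alternatives, the second probe (-0.094) among them, while median centring put Dut at -0.49. Tyms, the thymidylate synthase, was called higher at 0.18 (limma adjusted p 0.0445), with ratios of 0.16, 0.15, 0.29 and 0.11. That call was lost under 11 alternatives, and the treated and control levels of Tyms overlapped.

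Of the 4 chromatin assembly genes, 3 were lower. Uhrf1, which guides maintenance DNA methylation behind the fork (probe chr17:56462657-56462716), averaged 15.65 ± 0.18 in treated samples and 16.44 ± 0.07 in control samples (SD, n = 4 each, log2 level). Its ratios were -1.05, -0.67, -0.84 and -0.61 (limma adjusted p 3.31e-05), and no level overlapped. A second kept Uhrf1 probe gave -0.56, and was called lower. Slbp, which binds the stem-loop of replication-dependent histone mRNA, had ratios of -0.69, -0.64, -0.53 and -0.34, a mean of -0.55 (limma adjusted p 0.000201). Chaf1a, the large subunit of chromatin assembly factor 1, had ratios of -0.57, -0.24, -0.62 and -0.53, a mean of -0.49 (limma adjusted p 0.000527). Its levels varied between arrays, with an SD of 0.50 in treated and 0.49 in control samples, and overlapped. Chaf1b was not called at 0.10, and it was called higher with the GC trend removed, at 0.19 (limma adjusted p 0.0327).

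Of 11 cyclin, CDK and E2F genes, 9 were called lower and 1 higher, and the median was -0.48. E2f8, a repressor of the E2F family (probe chr7:56122022-56122081), had log2 levels of 11.09, 11.08, 11.04 and 10.95 in treated samples and 12.05, 12.06, 12.05 and 11.94 in control samples. Its ratios of -0.97, -0.98, -1.01 and -0.99 lay closest together among these genes, and the mean was -0.99 (SE 0.065, n = 4, limma adjusted p 1.11e-06). E2f7, its relative, was at -0.43 with ratios of -0.42, -0.48, -0.39 and -0.44. The activators E2f2 (ratios -0.72, -0.81, -0.55 and -1.13, mean -0.80, limma adjusted p 6.07e-05) and E2f1 (mean -0.38) were lower as well, but the second E2f1 probe was at -0.21 and not called, with array 2 above 0.

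Ccne1, a cyclin E that activates Cdk2 before S phase (probe chr7:38882937-38882960), had log2 levels of 14.24, 14.29, 14.20 and 14.20 in treated samples and 14.88, 15.02, 14.96 and 15.04 in control samples. These did not overlap, and the ratio was -0.74 (SE 0.069, n = 4, limma adjusted p 1.15e-05). Ccna2, the S phase cyclin, had ratios of -0.52, -0.52, -0.63 and -0.35, a mean of -0.50 (limma adjusted p 0.000207). Cdc25a, the phosphatase that activates Cdk2, was at -0.50 but spread over -0.05, -0.25 and -0.70 on arrays 1 to 3, with its lowest ratio on array 4. Ccne2, the other cyclin E, was at -0.45 with ratios of -0.20, -0.77, -0.73 and -0.08. Without array 3, neither Cdc25a nor Ccne2 was called, at limma adjusted p of 0.0551 and 0.0519. Median centring also ended both calls, at limma adjusted p of 0.0517 and 0.122, and the second Cdc25a probe was at -0.17 and not called. The scanner's log ratios put Cdc25a at -0.71 and Ccne2 at -0.69. Cdk4, the partner of D cyclins, was not called at -0.11.

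For Cdk2 and E2f3 the sign depended on which probe was read. The brightest Cdk2 probe gave -0.48 (limma adjusted p 0.00143), or -0.80 with the scanner's log ratios, while a second kept probe gave 0.18 with ratios of -0.77, -0.18, 0.89 and 0.76 and was well above background in the control channel on 2 of 4 arrays only. E2f3, an activator of the family, was the other member called higher. Its brightest probe, at chr13:29998480-29998539 in mm9, had log2 levels of 13.58, 13.51, 13.36 and 13.42 in treated samples and 13.11, 13.08, 13.04 and 13.16 in control samples. It was higher on every array, with a mean ratio of 0.37 (SE 0.070, n = 4, limma adjusted p 0.00121). With the GC trend removed it was at 0.10 (limma adjusted p 0.253), and with median-centred processed signals at 0.27 (limma adjusted p 0.101), not called in either. Next to it, the probe at chr13:30001985-30003071 was lower, with ratios of -0.59, -0.60, -0.77 and -0.46. A further probe at chr13:30005369-30008755 was also lower, at -0.31, -0.28, -0.44 and -0.16. The remaining E2f3 probe was not above background on any array. E2f3 is on the minus strand, and positions in exons or untranslated regions were not assigned because no mm9 annotation was used here.

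**Figure D5:**
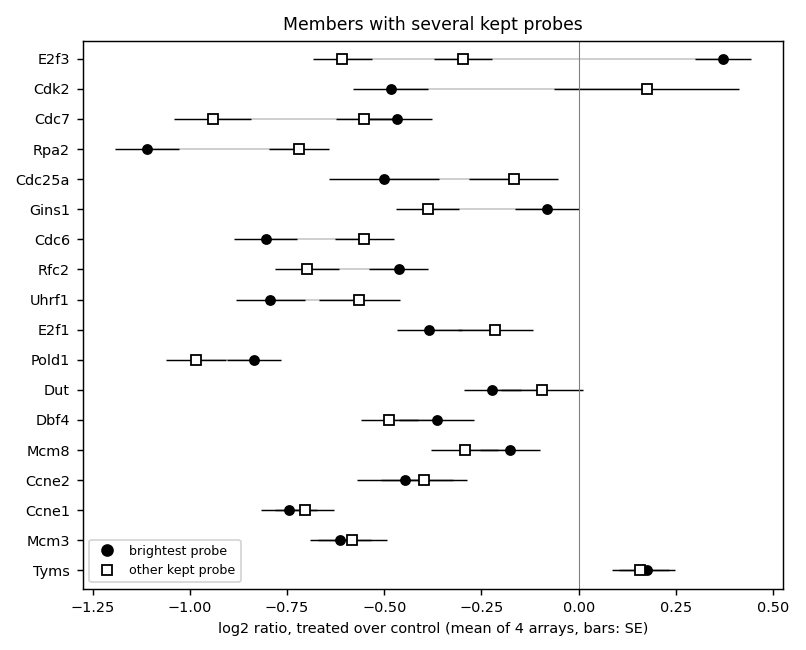
Log2 ratio of treated over control for the 18 members with several kept probes, as the mean of 4 arrays with its SE; filled points are the brightest probe and open squares the others. E2f3 has probes on both sides of 0, and the other genes' probes mostly lie on the same side.

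Over the 88 probes that name a member, 79 were kept by the filter, of which 57 (72.2%) were called lower and 1 higher. Over all 27730 kept probes, 29.1% were lower and 37.3% higher. Of 18 members with several kept probes, 10 had all of them called lower, 6 had lower and uncalled probes, and Tyms had none called lower. E2f3 alone had probes called in opposite directions. The Cdc7 probes all fell but ranged from -0.94 to -0.47, and the Mcm3 probes gave -0.61 and -0.58.

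The levels of both channels gave another description, without a test and without the pairing of channels on an array. For 40 members every treated level was below every control level, a pattern that 27.1% of all genes showed, and for E2f3 every treated level was above. The 40 comprised 16 licensing genes, 12 fork genes, 3 nucleotide genes, 2 chromatin genes and 7 cyclin, CDK or E2F genes. Among the fork genes was Rpa1, which was not called (limma adjusted p 0.068). Its highest treated level was 15.258 and its lowest control level 15.264.

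Another 56 genes of DNA replication that are not among the members were read from the same fit. Of these, 38 were called lower, 6 higher and 12 not called, with a median log2 ratio of -0.29. Asf1b, a histone chaperone, had ratios of -1.06, -1.21, -1.18 and -0.73, a mean of -1.04 (limma adjusted p 7.71e-06). Recql4, a helicase of origin firing, was at -0.97, Dck, the deoxycytidine kinase, at -0.96, and Ung, which removes uracil from DNA, at -0.82. Each of these was lower on all 4 arrays. Among the rises, Polh, a polymerase that copies past lesions, had ratios of 0.77, 0.91, 1.00 and 0.67, and Pold4, the small subunit of polymerase delta, had 0.75, 0.75, 0.60 and 0.66. Pold4 thus moved opposite to its partners Pold1 and Pold2. Rrm2b, the p53-regulated ribonucleotide reductase subunit, was higher at 0.59 and was well above background in the control channel on 2 of 4 arrays. E2f4, a member of the family that acts with the pocket proteins, was higher at 0.64, but its ratios of -0.14, 0.31, 1.57 and 0.82 straddled 0, and without array 3 it was at 0.33 and not called (limma adjusted p 0.113). With the GC trend removed, neither E2f4 (0.21, limma adjusted p 0.209) nor Rrm2b (0.19, limma adjusted p 0.06) was called, while the scanner's log ratios put Rrm2b at 1.34. A second Polh probe gave 0.37 and was called higher.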

How the data were processed

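Each of 4 2-colour Agilent arrays carried a treated sample (Cy3, green) and a control sample (Cy5, red), per the labels. Spot signals are deposited as linear intensity values, which Agilent Feature Extraction, version 10.5.1.1, produced per the submitters' processing notes. The deposited LogRatio is log10 of red over green, per the file headers. The authors' deposited series table holds log2 values of unstated scale, centring and direction. For 100% of 41174 probes they matched the log2 ratio of processed green to red signal within 0.001, which is treated over control without centring. Its column medians were -0.26, 0.012, 0.11 and -0.058.

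Background was corrected by normexp (offset 50) and log2 ratios of green over red were normalized within arrays by loess. Of 45018 spots, 1639 controls had weight 0, and 141 to 171 outlier spots an array were left out. Probes that stood well above background on 3 or more of the 4 arrays in 1 channel were kept (27730), and the brightest stood for its gene (18454 genes, 15608 with a name matched to the RefSeq GRCm38.p6 table). The members include Orc1, Orc2, Orc6 and Cdc45 under older names. Ratios were tested against 0 with limma 3.58.1 (lmFit and eBayes, R 4.3.3) and Benjamini-Hochberg adjustment over all genes, or over all kept probes for single probes. A gene is called at an adjusted p under 0.05. SEs come from this fit. Ratios are relative to each array's central trend, so they miss any shift common to all genes. Levels are log2 values per channel after loess and Aquantile. The number of arrays limits the precision: the median SD of a ratio was 0.15. The procedure was tested on simulated data.

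The members and lists were chosen with earlier results of these data known. Given array by array are up to 4 members per role with the smallest adjusted p that fell, members called higher or with probes in opposite directions, and the 4 largest called falls and rises of the other replication genes. Members beyond these are given by mean, and where they are given by array they were chosen after their values were seen. Each array's pair of samples shares a hybridization, so the ratio is the blocked comparison. Alternatives covered normalization, background, filter, probe choice, the block, probe GC and each array left out.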

Additional observations from a re-analysis of the deposited data

Results flagged for a closer look

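The 4 arrays were checked for a value far from the other 3 in 67 genes, by Dixon's ratio of the gap to the nearest neighbour over the whole range of the 4. Chance marks about 1 in 20 such groups, and 5 were marked. Cdc45 was least low on array 4, at a log2 ratio of -0.35. Gins3 was lowest on array 2, at -0.44. Rfc5 was least low on array 1, at -0.29. Rrm2 was least low on array 4, at -0.31. Recql4, of the other replication genes, was lowest on array 3, at -1.23. Each gene was below 0 on all 4 arrays.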

How the results depend on the processing

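Of the 43 members called lower, 34 stayed so in 13 of the 14 alternatives, the exception being the second brightest probe, which exists for 18 members. In those 13, calls were lost at least once for Pcna, Dut, Ccne2, Cdc25a, Cdk2, Chaf1a, Dbf4, Gins2 and Gins3, and the second probe ended those of Cdc25a, Cdk2, Dut and E2f1. Members called lower numbered 42 to 43 when 1 array was left out, with 1 called higher each time and a median of -0.49 to -0.45. Leaving out 1 array gave 30 to 38 lower and 5 to 6 higher of the other replication genes, and 4998 to 5388 lower and 6448 to 6749 higher of all genes. Median centring gave 38 members lower and 1 higher, 25 other replication genes lower and 3575 genes lower. It put nucleotide supply at a median of -0.46, below the cyclins, CDKs and E2F factors at -0.42. The polymerase, clamp and fork genes were then at -0.55. With the scanner's log ratios, the cyclins, CDKs and E2F factors were at -0.69, below the licensing genes at -0.63. The scanner's log ratios and the deposited series table each gave 1 member higher and a member median of -0.61, where the all-gene median moved to -0.12 (0.02 with loess). Median-centred processed signals gave 41 members lower and 0 higher, with a median of -0.57, and 6063 genes lower and 5444 higher. Removing the GC trend gave 1 higher, a median of -0.57 and 3 other replication genes higher. The second brightest probe gave 13 of 18 members lower and 0 higher, 14 other replication genes lower, and 1780 genes lower and 2481 higher among fewer genes tested. It put nucleotide supply at a median of 0.032 (2 genes), Cdk2 at 0.18 and E2f3 at -0.61, and the mean of all kept probes put E2f3 at -0.18, with 1 member higher. Without the replicate block, with channels as separate samples, 42 members were lower and 1 higher, and over all genes 5474 lower and 6683 higher. There Chaf1a lost its call (limma adjusted p 0.131), as did Tyms. The cause of these changes was not tested beyond the smaller gene set of the second probe. Signal over background limits the second Cdk2 probe and Rrm2b.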

Other observations

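Further genes of the list of other replication genes, chosen after their values were seen, filled in functions beside the members. Of the genes that keep DNA methylation and chromatin through S phase, Dnmt1, the maintenance methyltransferase, was at a log2 ratio of -0.70 (ratios -0.87, -0.28, -0.86 and -0.79, limma adjusted p 0.000259). Ssrp1, a subunit of the histone chaperone FACT, was at -0.61, and Cdca7, a partner of the remodeller Hells, at -0.68. In nucleotide supply, Dctpp1, which removes unwanted nucleotides, was at -0.68. Of the fork protection genes, Timeless was at -0.52 and Clspn at -0.46, while Tipin, the partner of Timeless, was at -0.16 and not called. Rbl1, a pocket protein that binds E2F factors, was at -0.59. All of these but Tipin were called lower. Top1, a topoisomerase that relieves twist ahead of the fork, was called higher at 0.27, and Top2a was not called at -0.05.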
